A study of Caenorhabditis elegans with 2 samples.

Results

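Neurotransmitter identity genes encode the enzymes and transporters that let a neuron make, package and take back its transmitter. The 10 genes described here are unc-25, unc-47, unc-46 and snf-11 for GABA, unc-17, cha-1 and cho-1 for acetylcholine, eat-4 for glutamate, and cat-1 and tph-1 for monoamines. They were chosen by name out of 19985 protein-coding genes, with earlier results of these data known. Because unc-17 and cha-1 share a locus, the 10 genes stand for 9 loci. Binding of ZAG-1, a zinc finger homeodomain protein of the ZEB family, was measured by chromatin immunoprecipitation and sequencing (ChIP-seq) in whole Caenorhabditis elegans larvae at the L2 stage. Worms of the strain OP83 were of mixed sex. They carried unc-119(ed3) and the insertion wgIs83, from which eGFP-tagged ZAG-1 was expressed. There were 2 biological replicates of this 1 group and no second condition. The labels give the larval age as unknown, the antibody as zag-1 and the target as eGFP-zag-1.

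Deposited peak lists held 24146 peaks in replicate 1, 29374 in replicate 2, 16325 with both replicates pooled, and 1803 past an irreproducible discovery rate (IDR) threshold. These 1803 were also the 1803 pooled peaks with the highest scores. Ranks below run from 1 for the highest score within a list, and score levels were compared only within a list. The longer lists also hold weak candidates: the deposited q-value was 0.05 or less for 23.7% of pooled peaks, 18.1% of replicate 1 peaks and 15.5% of replicate 2 peaks. A summit, the highest point of a peak, was given to the gene with the nearest protein-coding 5' end within 5 kb and to any gene whose body held it. Peak lists give no read counts, so the depth is unknown. Since chromatin came from whole larvae, strong binding in few cells and weak binding in many cannot be told apart, and a summit does not say which neurons it came from.

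In the nematode, each neuron's transmitter is set by a small group of genes that are switched on together. Transcription factors known as terminal selectors turn such groups on, for example the homeodomain protein UNC-30 in D-type GABA motor neurons, where it acts on unc-25 and unc-47 through sites with the core TAATCC. Vertebrate ZEB proteins bind E-boxes of the form CAGGTG and are best known as repressors. In the worm, zag-1 is known for its part in neuron differentiation and axon guidance.

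Of the 10 genes, 4 had a pooled summit with a q-value of 0.05 or less, and the 201 bases centred on the strongest pooled summit of each are shown because the clearest signals of the set lay there. They are written 5' to 3' in the direction of the gene's transcription, from the WBcel235 (ce11) genome sequence. The unc-25 window was chrIII:12942387-12942587 on the plus strand, the unc-47 window chrIII:10186346-10186546 on the minus strand, the snf-11 window chrV:11308926-11309126 on the minus strand and the cat-1 window chrX:5707919-5708119 on the minus strand. Capitals mark TAATCC, read as GGATTA on the other strand, in unc-25, unc-47 and cat-1, and in cat-1 also the reverse complement of CAGGTG. The snf-11 window held neither.
unc-25: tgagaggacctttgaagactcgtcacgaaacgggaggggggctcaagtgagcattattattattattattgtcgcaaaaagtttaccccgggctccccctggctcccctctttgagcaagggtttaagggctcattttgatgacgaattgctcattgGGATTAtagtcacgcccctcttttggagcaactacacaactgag
unc-47: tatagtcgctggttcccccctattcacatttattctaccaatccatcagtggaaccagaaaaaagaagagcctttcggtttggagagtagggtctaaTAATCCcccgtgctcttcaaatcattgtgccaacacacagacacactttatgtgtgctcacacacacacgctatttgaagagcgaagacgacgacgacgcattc
snf-11: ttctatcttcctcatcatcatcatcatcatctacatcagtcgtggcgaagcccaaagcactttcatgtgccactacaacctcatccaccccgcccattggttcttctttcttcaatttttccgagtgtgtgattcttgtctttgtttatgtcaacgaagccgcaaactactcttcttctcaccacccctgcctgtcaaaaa
cat-1: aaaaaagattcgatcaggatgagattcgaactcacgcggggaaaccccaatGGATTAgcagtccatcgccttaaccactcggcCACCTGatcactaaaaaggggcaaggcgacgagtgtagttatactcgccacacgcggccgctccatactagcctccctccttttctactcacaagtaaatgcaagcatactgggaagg

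The 10 genes did not stand out in the IDR-thresholded list. Among genes with a pooled summit at a q-value of 0.05 or less, 3 of the 4 GABA genes had their strongest within 1 kb upstream. The same held for 1247 of all 19985 protein-coding genes. That q-value was chosen after the data were seen. In both replicates 2 of the 4 GABA genes passed it, against 10.7% of all genes. In the IDR-thresholded list 1 of the 10 genes (10%), snf-11, had a summit, against 7.76% of all protein-coding genes, so the share lay near the background. With as many of the top peaks of a single replicate in place of that list, the count was 0 without replicate 2 and 2 (unc-25 and snf-11) without replicate 1. The share of all genes at that cutoff is not given. For scale, 7.88% of all genes had a replicate 1 summit ranked as high as that of snf-11 (rank 1859). In replicate 2, 7.17% had a summit ranked as high as that of unc-25 (rank 1676). In the pooled list 8 of 10 had a summit (80%), against 45.5% of all genes, with unc-46 and tph-1 lacking one. At a q-value of 0.05 or less, 4 of 10 had a pooled summit (40%): unc-25, unc-47, snf-11 and cat-1, against 14.4% of all genes. By transmitter these were 3 of 4 GABA genes, 0 of 3 acetylcholine genes, 0 of 1 glutamate gene and 1 of 2 monoamine genes. Groups of 1 to 4 genes allow no test, and the counts are descriptions. The 10 genes are also long targets: the stretch within which a summit would be assigned to the gene had a median of 7440 bp in this set, against 4504 bp over all genes.

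**Figure D1:**
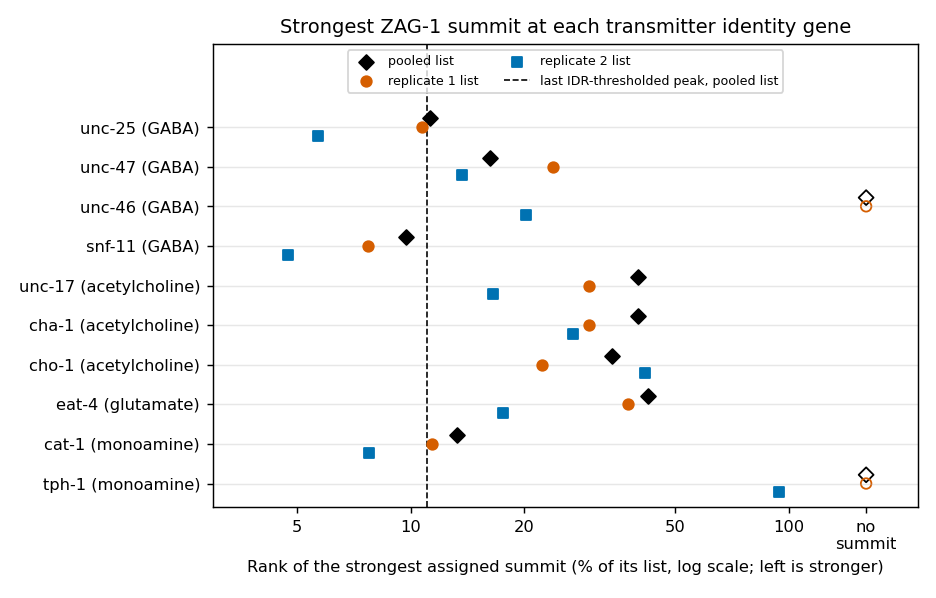
Rank of the strongest assigned summit of each gene, as a percentage of its list on a log axis, in the pooled list (diamonds), replicate 1 (circles) and replicate 2 (squares); open symbols at the right mark genes with no summit, and the dashed line the last IDR-thresholded peak in the pooled list. snf-11, unc-25, cat-1 and unc-47 held the 4 highest pooled ranks, at 9.73%, 11.3%, 13.3% and 16.3% of the list, while cho-1, unc-17, cha-1 and eat-4 lay between 34.1% and 42.5%.

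The GABA gene snf-11 encodes the plasma membrane transporter that takes GABA back up. Its strongest summit lay 580 bp upstream of the 5' end in the pooled list (V, 11308838 to 11309213, rank 1589, score 32.3, q = 0.00346), 580 bp upstream in replicate 1 (rank 1859, score 18.98, q = 0.00457) and 638 bp upstream in replicate 2 (rank 1397, score 13.9, q = 0.00609). This was the only IDR-thresholded summit assigned to any of the 10 genes, and both replicates placed it in nearly the same position. It lay outside the 1803 highest-scoring peaks of replicate 1 and inside those of replicate 2. Over all protein-coding genes, 6.92% had a pooled summit of this rank or higher. A second pooled summit 780 bp upstream (rank 15010, q = 0.881) and a replicate 2 summit in a coding exon (rank 18067, q = 0.651), were weak. Farther out, a pooled peak of rank 2623 and score 23.5 had its summit 1590 bp upstream of snf-11 but only 1386 bp from T03F7.7, to which it was assigned; its best ranks in the replicates were 2064 and 3427.

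The gene unc-25 encodes glutamic acid decarboxylase, the enzyme that makes GABA. It missed the IDR-thresholded list by 34 ranks: the strongest pooled summit, 164 bp upstream of the 5' end (III, 12942299 to 12942674, q = 0.00354), had rank 1837 and score 29.2, against a score of 29.6 for the last peak of that list. In replicate 1 the summit lay 171 bp upstream (rank 2587, score 15.5, q = 0.00754) and in replicate 2 it lay 204 bp upstream (rank 1676, score 12.5, q = 0.00627). All 3 lists thus placed the strongest unc-25 summit 164 to 204 bp upstream. Of all genes, 7.88% had a pooled summit ranked as high. The other 4 pooled summits of unc-25, in introns 3, 5 and 6 and 3565 bp upstream, had ranks from 5337 to 11528 and q-values from 0.195 to 0.740.

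The gene unc-47 encodes the vesicular GABA transporter. Its only pooled summit lay 186 bp upstream (III, 10186258 to 10186633, rank 2653, score 23.3, q = 0.00773). In replicate 1 the summit lay 178 bp upstream (rank 5758, score 10.2, q = 0.133) and in replicate 2 it lay 186 bp upstream (rank 4016, score 8.04, q = 0.0362). The position was the same to within 8 bp, but replicate 1 alone would not have passed a q-value of 0.05. Of all genes, 10.7% had a pooled summit of this rank or higher. An IDR-thresholded peak lay on the other side of the same intergenic stretch (III, 10187902 to 10188277, rank 1446, score 34.1): its summit was 1830 bp upstream of unc-47 and 1122 bp from the 5' end of epac-1, the gene to which it was assigned. That peak differed between replicates, with a best rank of 690 in replicate 1 and 7878 in replicate 2.

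The gene unc-46 encodes a LAMP-like protein that directs the vesicular GABA transporter to synaptic vesicles. No summit was assigned to it in the IDR-thresholded, pooled or replicate 1 lists. Replicate 2 held 1 summit, 46 bp upstream (V, 5098893 to 5099248, rank 5925, score 6.84, q = 0.100). The nearest pooled summit lay 5958 bp away, past the gene's far end, and was assigned to glb-32. Of the 4 GABA genes, unc-46 also had the shortest assignable stretch, 3497 bp, against 4865 bp for snf-11, 6477 bp for unc-47 and 11199 bp for unc-25.

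**Figure D2:**
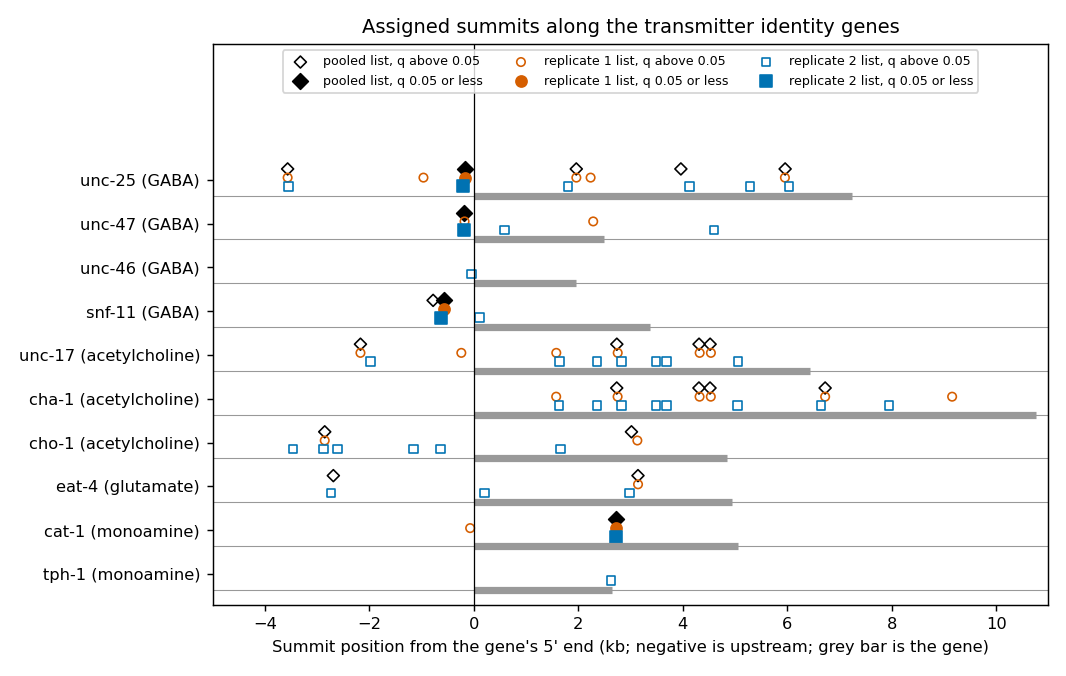
Position of every assigned summit along each gene, in kb from the gene's 5' end (negative is upstream), in the pooled list (diamonds), replicate 1 (circles) and replicate 2 (squares); filled symbols have a q-value of 0.05 or less and the grey bar is the gene. Filled pooled symbols lie 164, 186 and 580 bp upstream of unc-25, unc-47 and snf-11 and 2718 bp inside cat-1, and every symbol of unc-46, unc-17, cha-1, cho-1, eat-4 and tph-1 is open.

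The acetylcholine genes had many summits, but none with a q-value of 0.05 or less in the pooled list or in either replicate. The gene cha-1 encodes choline acetyltransferase, which makes acetylcholine, and unc-17 the vesicular acetylcholine transporter. Their annotated 5' ends lie 2 bp apart, and the remaining exons of unc-17 sit in intron 1 of cha-1, so most summits count for both genes. Their strongest pooled summit lay in intron 3 of unc-17 (IV, 3619988 to 3620363, rank 6521, score 13.9, q = 0.328), 4523 bp from the unc-17 5' end. In replicate 1 it lay in intron 2, 2754 bp from the 5' end (rank 7143, score 9.21, q = 0.227). In replicate 2 the strongest unc-17 summit was 1980 bp upstream (rank 4839, score 7.43, q = 0.0609), and the strongest cha-1 summit 6648 bp inside the gene (rank 7906, score 6.07, q = 0.195). The strongest summit of the locus was therefore at a different place in each of the 3 lists. The upstream site was found in all 3, 2171 bp upstream in the pooled list (rank 11233) and in replicate 1 (rank 9698), with the replicate summits 191 bp apart. Of all genes, 21.8% had a pooled summit ranked as high as 6521.

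The gene cho-1 encodes the high-affinity choline transporter that supplies acetylcholine synthesis. Its strongest summit lay 2855 bp upstream in the pooled list (IV, 13217233 to 13217608, rank 5572, score 15.0, q = 0.222) and in replicate 1 (rank 5380, score 10.5, q = 0.112). In replicate 2 it lay 2875 bp upstream (rank 12263, score 4.98, q = 0.426). The place was the same in each list, but in replicate 2 the peak stood at 41.7% of the list, against 22.3% in replicate 1. Of all genes, 19.3% had a pooled summit of that rank or higher. The nearest IDR-thresholded summit was 5003 bp upstream of cho-1 (rank 1414, score 34.5), just outside the 5 kb limit, and was assigned to C48D1.5. With the limit raised to 10 kb, no IDR-thresholded summit was assigned to cho-1 either.

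The glutamate gene eat-4 encodes the vesicular glutamate transporter. Its strongest pooled summit lay 2690 bp upstream (III, 9134009 to 9134384, rank 6942, score 13.5, q = 0.370). Replicate 2 had a summit 2730 bp upstream (rank 5167, score 7.21, q = 0.0733). Replicate 1 had none there, and its only summit assigned to eat-4 lay in intron 9 (rank 9073, score 8.27, q = 0.361). Replicate 2 had 2 further summits, in intron 1 at 204 bp from the 5' end (rank 9288, q = 0.270) and in intron 8 (rank 24800, q = 0.849). Of all genes, 23.1% had a pooled summit as strong as that of eat-4, and the nearest IDR-thresholded summit was 52384 bp away.

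The monoamine gene cat-1 encodes the vesicular transporter for serotonin, dopamine and other amines, and its strongest summit lay inside the gene and next to a tRNA gene. The summit was in intron 6, 2718 bp from the 5' end, in the pooled list (X, 5707831 to 5708206, rank 2170, score 26.5, q = 0.00438). It was at 2717 bp in replicate 1 (rank 2758, score 15.0, q = 0.00925) and at 2718 bp in replicate 2 (rank 2275, score 10.6, q = 0.00813). This was the closest match between replicates in the set, with summits 1 bp apart, and 9.09% of all genes had a pooled summit ranked as high. The annotated tRNA gene WBGene00022974 (X, 5708028 to 5708109, 82 bp, plus strand) lies in that intron wholly inside the peak, 9 bp from the pooled summit. tRNA genes lay within 100 bp of 3.03% of nuclear IDR-thresholded summits and of 1.55% of nuclear pooled summits. The part of the tRNA gene in the cat-1 signal was not tested; without summits near tRNA genes, 3 of the 10 genes had a pooled summit with a q-value of 0.05 or less, all of them GABA genes, against 13.9% of all genes with the same summits removed. The only other cat-1 summit, 71 bp upstream in replicate 1, was weak (rank 22915, q = 0.930).

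The gene tph-1 encodes tryptophan hydroxylase, the enzyme of serotonin synthesis. It had no summit in the IDR-thresholded, pooled or replicate 1 lists. The only one, in replicate 2, lay in the 3' UTR, 2627 bp from the 5' end (II, 7551784 to 7552139, rank 27695 of 29374, q = 0.918), and was shared with ZK1290.10. A replicate 2 summit 815 bp upstream of tph-1 was assigned to fbxa-224 and was weaker still (rank 28418). The assignable stretch of tph-1, 3244 bp, was the shortest of the 10 genes.

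Across the set, the strongest pooled summit lay within 1 kb upstream of the 5' end in 3 of the 8 genes that had one (37.5%), against 30.7% of the 9086 such genes overall. These 3 were unc-25, unc-47 and snf-11. Among genes with a pooled summit at a q-value of 0.05 or less, 3 of 4 of the set (75%) and 43.2% of the 2885 genes overall had their strongest summit there. The remaining gene was cat-1, with its intronic summit. Apart from the peaks given above, pooled summits within 5 kb of a 5' end of the set but assigned elsewhere were weak in the pooled list, with ranks from 8419 to 15398. They went to epac-1 beside unc-47, srh-45 beside snf-11, ZK512.10 beside eat-4 and cyp-43A1 beside cat-1. The one beside eat-4, 3747 bp upstream, had a best rank of 5056 in replicate 1, above the 9073 of the summit assigned to eat-4 there.

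The replicates named nearly the same genes but differed in how many weak summits they added. In replicate 1, 8 of the 10 genes had a summit (80%), against 59.4% of all genes, and in replicate 2 all 10 did, against 67% of all genes. Since replicate 2 named all 10, the genes with a summit in both replicates were the 8 of replicate 1, against 47.4% of all genes. At a q-value of 0.05 or less, replicate 1 named 3 genes (unc-25, snf-11 and cat-1), against 15.9% of all genes. At the same q-value replicate 2 named 4, with unc-47 in addition, against 16.9% of all genes, and both replicates named 3 (30%), against 10.7% of all genes. Peaks of the replicates that overlapped by at least 1 bp were found at 8 genes of the set, against 31.3% of all genes, and at 3 with a q-value of 0.05 or less, against 9.53%. Counting shared summits once, the set held 22 summits in replicate 1, 32 in replicate 2 and 18 in the pooled list. Of these, 13 replicate 1 summits and 14 replicate 2 summits formed 14 overlapping pairs, with a median distance of 66 bp between summits. The distance was 33 bp at unc-25, 8 bp at unc-47, 58 bp at snf-11, 1 bp at cat-1 and 20 bp at cho-1 for the strongest pair of each. It was 74 bp for the highest-ranked pair shared by unc-17 and cha-1, and 191 bp for the upstream pair of unc-17. At eat-4 it was 166 bp, and that gene's only pair was intronic, with ranks of 9073 in replicate 1 and 24800 in replicate 2. Both lists that pool or threshold the data were made from these replicates and are not separate evidence.

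**Figure D3:**
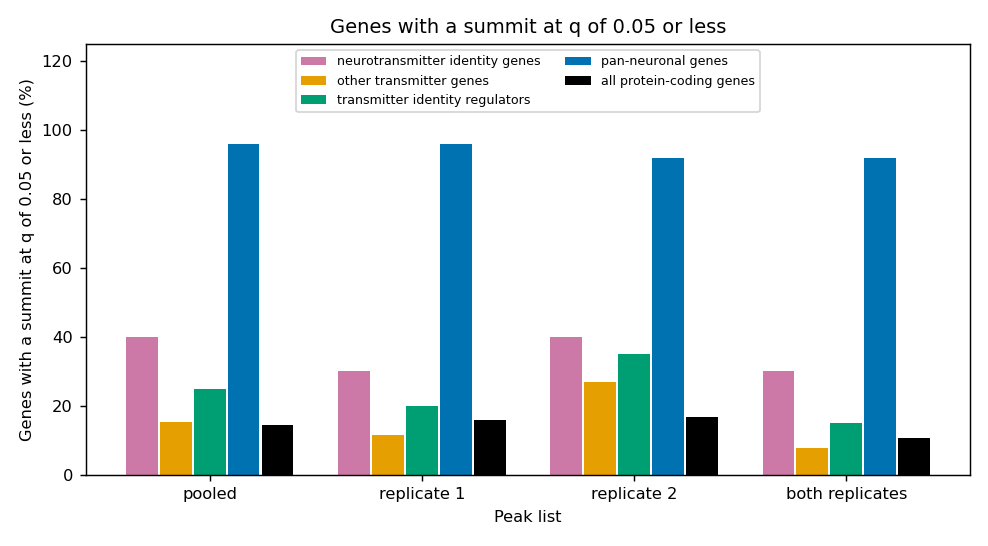
Share of genes with a summit at a q-value of 0.05 or less in the pooled list, in each replicate and in both replicates, for the 10 neurotransmitter identity genes, 26 other transmitter genes, 20 regulators, 25 pan-neuronal genes and all 19985 protein-coding genes. The neurotransmitter identity genes stood at 40%, 30%, 40% and 30%, between pan-neuronal genes (92% to 96%) and all genes (10.7% to 16.9%), and 1 gene is 10 percentage points of their bar.

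Other genes of the transmitter pathways had fewer pooled summits per length than the set. For 26 further genes of synthesis, breakdown and uptake, 4 (15.4%) had a pooled summit at a q-value of 0.05 or less, which is near the 14.4% of all genes. Those 4, named after their values were seen, were the dopamine enzyme gene cat-2, the GABA transaminase gene gta-1, the acetylcholinesterase gene ace-4 and the glutamate transporter gene glt-6. The glt-6 summit lay in the 3' UTR and was also assigned to vdac-1, and replicate 1 had no summit assigned to glt-6. Only cat-2, for tyrosine hydroxylase, had an IDR-thresholded summit, 1 of 26 (3.85%), against 7.76% of all genes. Its pooled rank of 255 and score of 79.8 were higher than any in the set, with the summit 2451 bp upstream (II, 255180 to 255555) and best ranks of 251 and 263 in the replicates. That summit was also assigned to scc-2. The call rested on the assignment rule. With the limit for the nearest 5' end cut to 2 kb, no gene of this list was assigned an IDR-thresholded summit. With the 5' ends of all transcripts none was assigned either. Counting any gene body or 2 kb upstream, whichever 5' end was nearest, named glt-3 in place of cat-2. Pooled summits per kb of assignable stretch numbered 0.282 in the set, with a shared summit counted for each of its genes, 0.147 in the other transmitter genes and 0.160 over all genes.

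Of 20 transcription factor genes listed here as transmitter identity regulators, zag-1 included, 5 (25%) had a pooled summit at a q-value of 0.05 or less. This compares with 14.4% of all genes. Not every gene of the list is known to set a transmitter. An IDR-thresholded summit was found at 2 (10%), near the 7.76% of all genes. These 2 were unc-42, a homeodomain factor of command interneurons (V, 9769415 to 9769790, 212 bp upstream, rank 832, score 46.5, replicate ranks 649 and 2071), and lim-4, a LIM homeodomain factor (X, 3871609 to 3871984, intron 3, rank 1266, score 36.9, replicate ranks 1962 and 1075). The GABA selector gene unc-30 had a pooled summit 49 bp upstream (rank 3027, score 21.3), with replicate ranks of 3371 and 2411. The other 2, nhr-67 and unc-55, are nuclear receptor genes; these and unc-30 are named after their values were seen. The gene zag-1 itself had no summit in any of the 4 lists; whether its region was masked in processing is not stated in the sources used here, so this 0 is no measure of binding there.

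Most genes listed here as pan-neuronal carried far stronger summits than the set. Whether each of these genes is expressed in all neurons, or only in neurons, was not examined here. Of the 25 genes so listed, 21 (84%) had an IDR-thresholded summit, against 1 of the 10 neurotransmitter identity genes and 7.76% of all genes. A pooled summit at a q-value of 0.05 or less was found at 24 (96%), against 4 of the 10 and 14.4% of all genes. The strongest were at egl-3, a proprotein convertase (score 115.8), rab-3, a synaptic vesicle GTPase (93.4), unc-104, a kinesin (85.7), and unc-10, an active zone protein (82.5), all above the 32.3 of snf-11 in the same list. Counting genes with no summit as last, the median best pooled rank was 6046.5 in the set and 410 in the pan-neuronal genes. The pan-neuronal genes had a median assignable stretch of 9214 bp, against 7440 bp in the set and 4504 bp over all genes. Pooled summits per kb numbered 0.452, against 0.282 in the set and 0.160 over all genes. No test was made, since all these lists were chosen with results of these data known.

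**Figure D4:**
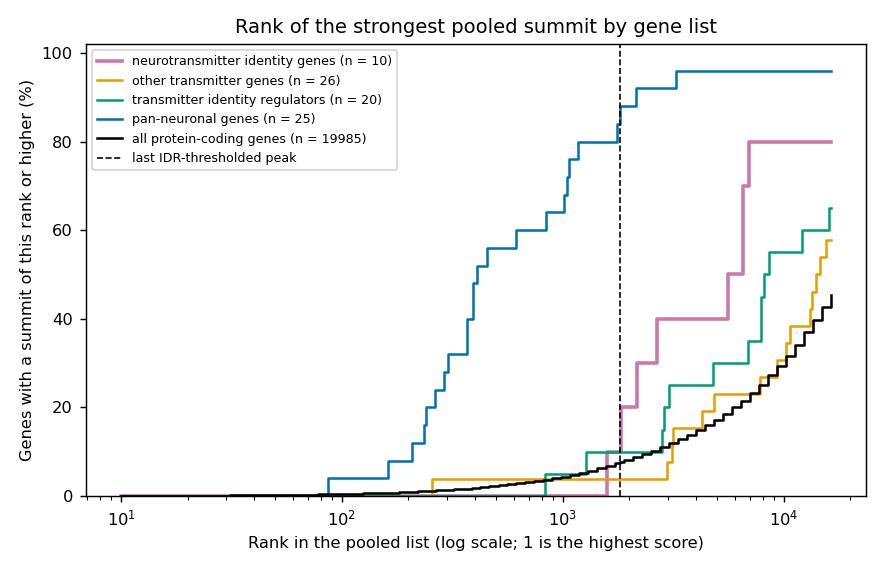
Percentage of the genes of each list whose strongest pooled summit had a given rank or a higher one, with rank on a log axis from 1 (highest score) and a dashed line at the last IDR-thresholded peak (rank 1803). The curve of the 10 neurotransmitter identity genes starts at rank 1589 and reaches 80% at rank 6942, while 84% of the 25 pan-neuronal genes lie at or above rank 1803.

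Of 3 short motifs looked for, GAGAGA was at none of the strongest summits of the 10 genes, CAGGTG was at 1 and TAATCC at 3. These are 9 windows, since unc-17 and cha-1 share 1. Of the 9, 7 came from the pooled list and 2, at unc-46 (q = 0.100) and tph-1 (q = 0.918), from replicate 2 only. Motifs were searched on both strands within 100 bp of each summit, and no 2 of the 3 motifs overlapped in the windows shown. CAGGTG was in 1.89% of IDR-thresholded windows, 4.45% of pooled windows and 8.49% of 301-base promoters running from 250 bp before to 50 bp after each 5' end. Of the 10 genes, 1 had it at the strongest summit, cat-1, 17 bp from the summit, and that copy (X, 5708031 to 5708036) lay inside the tRNA gene. GAGAGA was in 49.4% of IDR-thresholded windows, 22.8% of pooled windows and 21.8% of promoters. It was in 0 of the 9 windows at the strongest summits and in 0 of the 10 promoters.

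TAATCC, the core of UNC-30 sites, was searched after the peak positions were known. Since UNC-30 is known to act on unc-25 and unc-47 through such sites, matches near these genes could be foreseen. The shares below therefore give scale only and are no measure of enrichment in the set. It was in 4.27% of IDR-thresholded windows, 6.77% of pooled windows and 9.40% of promoters. In the set it was found at unc-25, 57 bp downstream of the summit as counted to the start of the motif in the direction of the gene, at unc-47, 3 bp from the summit, and at cat-1, 49 bp from the summit and again inside the tRNA gene (X, 5708063 to 5708068). In the promoters it began 107 and 57 bp upstream of the unc-25 5' end and 189 bp upstream of the unc-47 5' end, and in none of the other 8 promoters. The letters alone do not show a bound site, and their part in the signal was not tested. The windows at unc-25, unc-47, snf-11 and cat-1 had a GC content of 47.8%, 45.8%, 44.8% and 50.7%, while those of the other 6 genes had 29.4% to 38.8%. Mean GC content was 45.6% at IDR-thresholded summits, 38.4% at all pooled summits and 34.8% in promoters.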

How the data were processed

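Per the deposited file lists, peaks of each replicate came from its alignment and a control alignment, and the pooled list from both replicates. Which caller, filters and IDR cutoff were applied is not given in the sources used here. Each deposited ce11 list holds the authors' score per peak, whose scale is not stated, the authors' −log10 q-value and a summit offset. No control or alignment was analysed here and the lists give no read counts, so no interval that needs depth is given; no p-value was computed.

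Summits were read as start plus offset and placed on WBcel235 (Ensembl release 115, the ce11 assembly) with Python 3.11.15. Each went to the gene with the nearest protein-coding 5' end within 5 kb and to any gene containing it. The q-value was taken back from its −log10. Assignment was tested on simulated peaks. Windows of 100 bp on each side of a summit were searched for motifs. Figures were drawn with matplotlib 3.10.9.

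The 10 genes and the comparison lists, all 81 of whose symbols matched the annotation, were chosen with earlier results of these data known. Named were the 10 genes, members of the other transmitter and regulator lists with an IDR-thresholded summit, at most 4 pan-neuronal genes, and genes given a summit within 5 kb of the set. Alternatives were other assignment rules, overlap rules, motif windows, stricter lists and each replicate alone. The q-value threshold of 0.05, the removal of tRNA summits, the TAATCC search and the pan-neuronal list without unc-119 were added after the data were seen. No sample group differs in treatment, so counts are set beside those over all genes.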

Additional observations from a re-analysis of the deposited data

How the results depend on the processing

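Of 44 alternatives over 7 counts, 34 stayed within 1.5 times the reported value. The 1 gene with an IDR-thresholded summit became 2 (unc-47 and snf-11) when any gene body or 2 kb upstream counted, and 0 in the higher-scoring 50% of the list. It ranged from 0 to 2 with as many top peaks of a single replicate: 0 without replicate 2, and 2 (unc-25 and snf-11) without replicate 1. The shares of all genes under these alternatives are not given, so these counts cannot be read against a background. At a q-value of 0.05 or less, chosen after seeing the data, 4 genes in place of 8 had a pooled summit, and 3 without summits within 100 bp of a tRNA gene. At the same q-value 3 in place of 8 had summits in both replicates, and 3 in place of 8 had overlapping ones. The 1 other transmitter gene became 0 with the nearest 5' end limited to 2 kb and 0 with the 5' ends of all transcripts. With any gene body or 2 kb upstream it was glt-3 in place of cat-2. Pan-neuronal counts stayed between 18 and 22 of 25, and were 20 without unc-119, the marker locus of the strain. The CAGGTG count was 1 in every window. No paired analysis was possible because there is 1 group and no result comes from a test. Unknown depth limits the reading of genes with no summit.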

Other observations

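Around zag-1 (IV, 3855843 to 3861569) no list held a peak over 46635 bp, from 3841185 to 3887819. The median gap between peaks, over the 4 lists combined, was 1238 bp, and 4 of 39909 gaps on the nuclear chromosomes were as long or longer, this one included. The summit count of 0 at zag-1 therefore belongs to a longer empty stretch, and it is no measure of binding at that gene: whether the region was masked in processing is not stated in the sources used here.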
